A study of Mus musculus with 6 samples.

Results

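The insulin-like growth factor binding protein genes Igfbp1 to Igfbp7 were examined for the distal regions their promoters contacted in mouse embryonic stem cells of the R1 line. Members were all listed pairs whose promoter line carried the name of any of these 7 genes, and 6 of the 7 were named among the 21956 genes in the lists. Nuclei of untreated R1 cells, a line kept undifferentiated with leukemia inhibitory factor, were obtained after 10 min in 1% formaldehyde, and their DNA was cut for 4 h with MboI, which recognises GATC. HiCap joins Hi-C, the ligation of DNA ends that lay close together in the nucleus, to hybridisation with probes for promoter fragments, and it was run on 2 replicates. Hi-C without the promoter probes was run on 2 replicates that were deposited as 1 pooled list, and the 2 Capture-C libraries were not analysed here. All groups shared this single cell line and the enzyme and differed in the assay. The lists hold no expression values, so the identity of the cells was not checked against markers.

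Insulin-like growth factors signal through cell-surface receptors of the insulin receptor family, and most of these ligands outside the cell are held by secreted binding proteins. A binding protein can withhold the growth factor from its receptor or, once cut by a protease, release it near the cell. Promoters can be brought close to distant regulatory DNA by folding of the chromosome, and a proximity ligation assay records which restriction fragments were joined.

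An interaction here is a pair of a captured promoter fragment and a distal region, each bounded by MboI sites, and it was called when the same gene, promoter fragment and distal region stood in both HiCap replicate lists. The lists hold positions with no read numbers, so the depth behind a pair is unknown. Igfbp4 was chosen by its number of called distal regions, among the largest of any gene, and the other members by their names, so the counts in the HiCap lists are given as descriptions. No test was possible with 2 HiCap libraries and 1 pooled Hi-C list, and pairs of the same promoter share a fragment and are not replicates. Intervals are exact binomial (Clopper-Pearson) 95% intervals and cover counting error only.

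The Igfbp4 coding promoter, the captured fragment with the most contacts in the family, is shown first. It is followed by the upstream sequence of Igfbp2, which came next in the number of distal regions, of Igfbp3, which had 2 called regions and the most CpG dinucleotides, and of Igfbp7, which was named in no list. Each run holds the 250 bases before the start site of a RefSeq transcript (sequences from the GRCm38.p6 table, placed on mm9 by an exact match), written 5′ to 3′ on the strand of the gene, with CpG dinucleotides in capitals.
Igfbp4, chr11:98902308-98902557, plus strand: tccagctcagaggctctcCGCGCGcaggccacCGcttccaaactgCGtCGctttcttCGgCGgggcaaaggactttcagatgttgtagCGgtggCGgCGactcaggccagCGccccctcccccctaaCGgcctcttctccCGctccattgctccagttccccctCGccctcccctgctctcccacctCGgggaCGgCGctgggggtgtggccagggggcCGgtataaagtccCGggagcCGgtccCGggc
Igfbp2, chr1:72870804-72871053, plus strand: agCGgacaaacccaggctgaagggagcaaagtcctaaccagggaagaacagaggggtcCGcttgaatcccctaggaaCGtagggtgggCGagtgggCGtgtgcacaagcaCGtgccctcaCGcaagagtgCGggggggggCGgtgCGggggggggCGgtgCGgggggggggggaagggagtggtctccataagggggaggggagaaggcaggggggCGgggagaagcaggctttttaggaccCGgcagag
Igfbp3, chr11:7113927-7114176, minus strand: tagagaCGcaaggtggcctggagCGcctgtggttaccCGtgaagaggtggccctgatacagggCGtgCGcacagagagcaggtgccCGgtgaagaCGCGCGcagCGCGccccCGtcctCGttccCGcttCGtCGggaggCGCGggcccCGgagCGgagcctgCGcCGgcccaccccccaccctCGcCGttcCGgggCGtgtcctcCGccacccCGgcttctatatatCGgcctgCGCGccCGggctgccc
Igfbp7, chr5:77837071-77837320, minus strand: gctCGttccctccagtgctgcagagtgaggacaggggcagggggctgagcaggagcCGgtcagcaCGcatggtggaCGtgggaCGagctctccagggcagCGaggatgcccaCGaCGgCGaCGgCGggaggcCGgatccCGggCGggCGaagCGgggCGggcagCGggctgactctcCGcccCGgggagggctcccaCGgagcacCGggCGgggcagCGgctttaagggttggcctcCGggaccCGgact
These windows held 22 CpG dinucleotides for Igfbp4, 14 for Igfbp2, 32 for Igfbp3 and 26 for Igfbp7, with G+C contents of 69.2%, 67.2%, 73.2% and 74%. The windows of the other members held 5 for Igfbp1, 10 for Igfbp5 and 7 for Igfbp6. The order of CpG number was not the order of contacts, since Igfbp3 had more CpG dinucleotides and fewer distal regions than Igfbp4.

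Of the genes listed in either HiCap replicate, 60.7% had a call, and all 6 listed Igfbp genes were among them. Igfbp4, whose product binds the growth factors and is cut by the protease PAPP-A, was linked to 258 distal regions in replicate 1, 410 in replicate 2, 111 in both and 27 in Hi-C. It stood 9th, 4th and 3rd among the genes of these HiCap lists and 61st of 16947 genes in Hi-C, where the median gene had 3. Igfbp2, a binding protein abundant in fetal tissues, was linked to 136 regions in replicate 1, 126 in replicate 2, 39 in both and 11 in Hi-C. Both genes were well above the median gene of each list, which had 13, 15 and 3 distal regions in replicate 1, replicate 2 and both.

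Igfbp5, a binding protein prominent in bone and the mammary gland, had 56 distal regions in replicate 1, 64 in replicate 2, 9 in both and 2 in Hi-C. Igfbp6, which binds insulin-like growth factor II more tightly than I, had 56, 21, 10 and 4 in the same order. Igfbp1, a liver-derived binding protein under insulin control, had 14, 60, 2 and 1. Igfbp3, the main carrier of the growth factors in serum, had 7, 66, 2 and 0. For Igfbp1 and Igfbp3 the replicates differed several-fold in the same direction, while for Igfbp6 replicate 1 held more than replicate 2. Of Igfbp5, Igfbp6, Igfbp1 and Igfbp3, none was above 10 called regions, and Igfbp1 and Igfbp3 lay under the median of genes with a call.

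**Figure D1:**
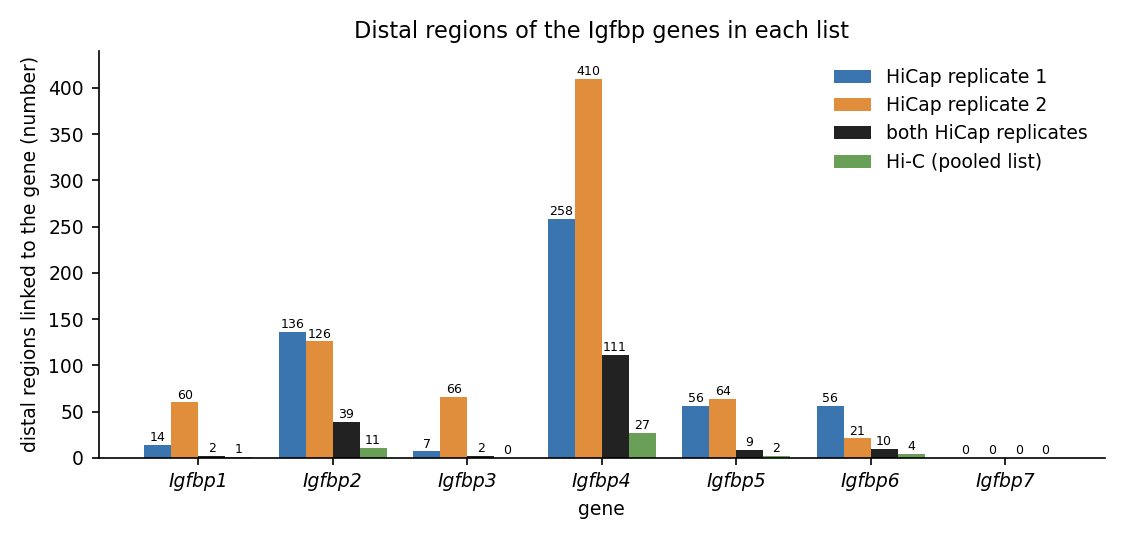
Number of distal regions linked to each Igfbp gene (vertical axis) in HiCap replicate 1, HiCap replicate 2, both replicates and the pooled Hi-C list, with the count over each bar. Igfbp4 had the highest bar in every list and Igfbp7 was at 0 in every list.

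Igfbp4 exceeded Igfbp2 by 2.85 times in called regions. This gap was 1.90 times in replicate 1 alone and 3.25 times in replicate 2 alone, and it was 2.20 times once each count was divided by the length of the captured promoter fragments of the gene. Igfbp4 had 4 captured promoter fragments in the lists, Igfbp2 had 2 and each other listed member had 1. Among the 725 genes with 4 promoter fragments, the median was 4 called regions, the 90th percentile 19 and the highest value the 111 of Igfbp4. The single Igfbp4 fragment with the most called regions, 70, still exceeded the 38 of the best Igfbp2 fragment by 1.84 times.

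**Figure D2:**
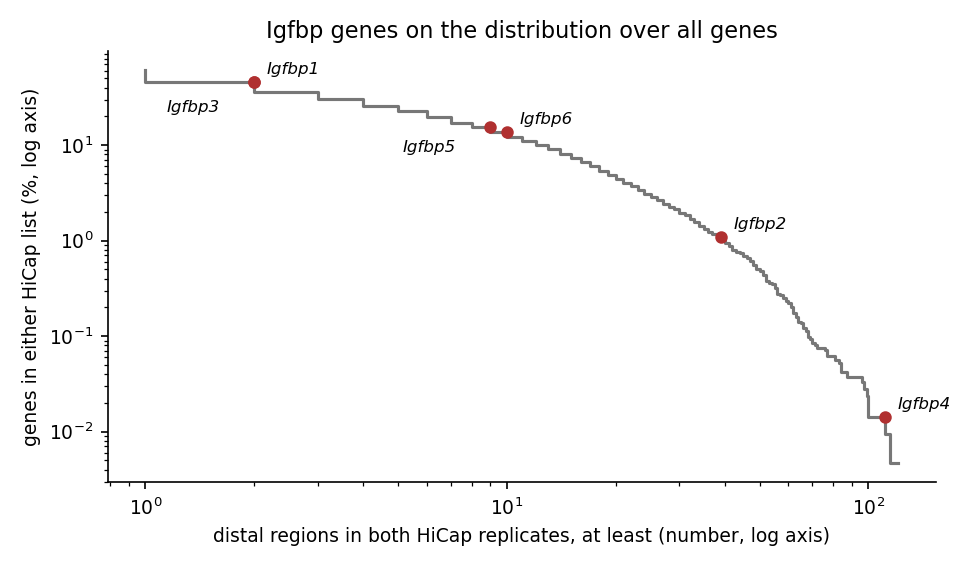
Percentage of the genes in either HiCap list (vertical axis, log scale) with at least the given number of distal regions in both replicates (horizontal axis, log scale), with the 6 listed Igfbp genes as red points. Igfbp4 with 111 lay close to the end of the distribution at 121, Igfbp2 with 39 lay below its 99th percentile of 47.3 among genes with a call, and the other members lay at 10 or fewer.

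Igfbp4 runs from 98902558 to 98913969 on the plus strand of chr11 (mm9), and its 4 captured fragments lay over its start and further inside the gene. The fragment at chr11:98902212-98903785, 1573 bp long with the start site of the coding transcript at 98902558, was linked to 156 distal regions in replicate 1, 222 in replicate 2, 70 in both and 19 in Hi-C. It ranked 13th of the 15873 promoter fragments with a call, a group that made up 51.9% of the fragments listed in either replicate. The fragment at chr11:98904119-98905048, with the start at 98904911 of a processed transcript, which GENCODE lists without a coding frame, had 143, 192, 60 and 6 and ranked 39th. The fragment at chr11:98908337-98909088, with such a start at 98908625, had 82, 111, 25 and 6 and ranked 550th. The fragment between these, chr11:98905691-98906289, with a start at 98906080, had only 3 regions in replicate 1, 13 in replicate 2 and 0 in both and in Hi-C. Neighbouring fragments of the same gene therefore ranged from 0 to 70 called regions, with the sparse fragment flanked on both sides by rich ones.

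In HiCap nearly all distal regions of Igfbp2 were linked to 1 of its 2 fragments, whereas in Hi-C the other fragment had more. The fragment at chr1:72869691-72871691, 2000 bp long with the coding start site at 72871077, had 133 distal regions in replicate 1, 123 in replicate 2, 38 in both and 5 in Hi-C, and ranked 198th. The fragment at chr1:72895078-72896053, at the start of a retained-intron transcript, had 8, 3, 1 and 7. Each remaining listed member had 1 fragment over its coding start, 724 bp long for Igfbp1, 1301 bp for Igfbp3, 1211 bp for Igfbp5 and 1106 bp for Igfbp6. The order of these lengths was not the order of called regions, since Igfbp3 had the longest of these 4 fragments and 2 calls.

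The called regions of the rich Igfbp4 fragments overlapped in part. The coding fragment itself had 156 regions in replicate 1 and 222 in replicate 2, with 70 in both. Whether the contacts of the fragments differed therefore cannot be told from these overlaps and was not tested. Of the 70 called regions of the coding fragment, 26 were also called for the fragment 1.58 kb away between midpoints, which is 37.1% of the former and 43.3% of the 60 of the latter. The coding fragment shared 15 regions with the fragment 5.71 kb away, or 21.4% of its own and 60% of the 25 of the other. Among all 111 regions, 12 were linked to 3 Igfbp4 fragments, 20 to 2 and 79 to 1. The 12 regions common to the 3 fragments lay downstream between 98910729 and 98924550, from an intron of Igfbp4 to the interval before Tns4, apart from 1 upstream region, chr11:98898908-98899571.

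The called Igfbp4 regions spanned 293 kb, from 98747137 to 99040426 on chr11. There were 32 upstream and 79 downstream of the linked promoter fragment, and none lay between 98901259 and 98910729, the stretch that holds the promoter fragments. With at least 1 base in an exon counted as exonic, 21 were exonic, 17 intronic and 73 intergenic. The gene body of Tns4, which encodes tensin 4 of focal adhesions and lies next downstream, was overlapped by 15 regions, of which 11 were exonic. Rara, the retinoic acid receptor alpha gene, was overlapped by 6, Igfbp4 itself by 6, the DNA topoisomerase gene Top2a by 5, the chemokine receptor gene Ccr7 by 5 and Wipf2 by 1. The captured promoter nearest to the region was an Igfbp4 fragment for 26 of the 111 regions, and 48 had no promoter fragment of another gene in between. The farthest region, chr11:98747137-98748063 in an intron of Wipf2, lay 157 kb from the promoter fragment with promoter fragments of 5 other genes in between.

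**Figure D3:**
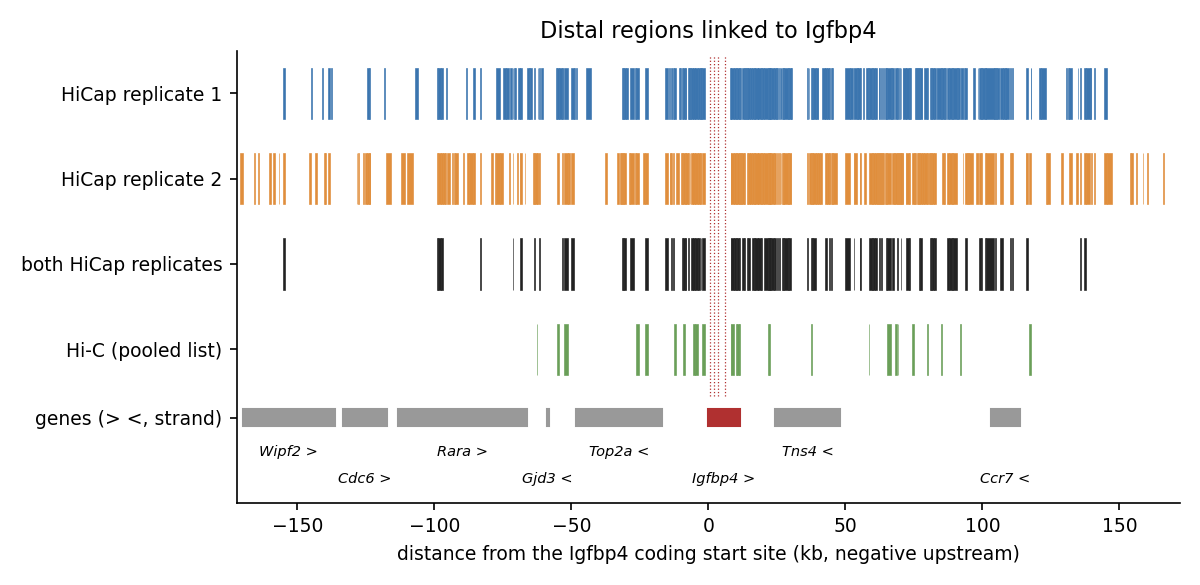
Distal regions linked to Igfbp4 as blocks at their distance in kb from the start site of the coding transcript (horizontal axis) in HiCap replicate 1, HiCap replicate 2, both replicates and Hi-C, with protein-coding genes below and the midpoints of the 4 promoter fragments as dotted lines. Regions in both replicates stood on either side of the gene, with 32 upstream and 79 downstream.

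Nearly all called Igfbp4 regions, 108 of 111, were single MboI fragments, with a median length of 507 bp and a range from 62 to 2647 bp. The median over all called regions was 568 bp. Adjoining fragments were often both called, so that the 111 regions formed 68 uninterrupted runs, the longest of 6 regions. Their median G+C content was 49%, against 46.5% for all called regions. A match to CCANNAGNNGGC, the core of the motif of the insulator protein CTCF, on either strand stood in 8 regions, or 7.21%, against 5.76% of all called regions of the same lengths and 6.49% of all called regions. The same letters stood in 2.43% of all RefSeq promoter windows of 300 bases and in none of the Igfbp windows above, which are 250 bases long. Windows and called regions differ in length, so these shares are not like for like. The Igfbp windows are too few for their lack of a match to be read.

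Some short called Igfbp4 fragments are printed here as examples. Their length is set by the spacing of GATC sites and says nothing about the width of a contact. The runs below are those fragments on the plus strand of mm9, 5′ to 3′, with the GATC at each end in capitals. They are an intronic fragment of Igfbp4 linked to 3 of its promoter fragments, an intergenic fragment linked to 2, and the shortest fragments that Igfbp4 shared with Rara, Tns4 and Ccr7.
Igfbp4 intron, chr11:98910730-98910819: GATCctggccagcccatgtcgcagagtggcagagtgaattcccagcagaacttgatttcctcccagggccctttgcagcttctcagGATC
Between Igfbp4 and Tns4, chr11:98924551-98924698: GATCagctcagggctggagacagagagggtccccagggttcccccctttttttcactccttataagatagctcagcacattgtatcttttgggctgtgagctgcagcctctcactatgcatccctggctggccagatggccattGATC
Shared with Rara, upstream of Igfbp4, chr11:98896920-98897095: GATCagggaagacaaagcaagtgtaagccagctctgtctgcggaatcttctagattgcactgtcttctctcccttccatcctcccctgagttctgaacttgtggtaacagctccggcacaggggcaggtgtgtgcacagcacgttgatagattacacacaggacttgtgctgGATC
Shared with Tns4, chr11:98957690-98957783: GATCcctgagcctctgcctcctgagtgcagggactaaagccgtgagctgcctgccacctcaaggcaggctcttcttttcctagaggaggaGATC
Shared with Ccr7, chr11:98972690-98972950: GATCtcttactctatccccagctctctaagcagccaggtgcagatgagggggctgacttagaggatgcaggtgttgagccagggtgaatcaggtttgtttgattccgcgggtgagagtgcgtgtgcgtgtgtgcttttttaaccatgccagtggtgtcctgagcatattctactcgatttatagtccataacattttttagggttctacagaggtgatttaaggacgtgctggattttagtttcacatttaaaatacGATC
The intronic fragment lay 2.06 kb from the nearest linked promoter fragment between midpoints, the fragment shared with Rara 5.99 kb, that in front of Tns4 20.04 kb, that shared with Tns4 54.7 kb and that shared with Ccr7 68.2 kb. None of these 5 fragments stood in the Hi-C list for Igfbp4.

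Around the coding promoter of Igfbp4, 501 MboI fragments had midpoints from 1 to 100 kb away, and a called region of that promoter covered 66 of them, or 13.2%. The same share was 11.7% for the fragment at 98904119, 5.22% for that at 98908337, 7.94% for the main Igfbp2 fragment and at most 1.65% for each fragment of the other members. Over all promoter fragments with a call the median was 0.6% and the 99th percentile 8.27%. Coverage counts the calls by which Igfbp4 was chosen, so the place of its fragments in this distribution is a description. Longer fragments were covered more often. Called coverage rose from 4.26% of the 94 fragments of up to 100 bp to 7.63%, 15.9%, 20% and 26.7% in the classes up to 250, 500 and 1000 bp and longer, and the longest class held 30 fragments. Fragment length moved with the listing of a region, and its part in the counts was not tested.

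The distances below are those of the calls by which Igfbp4 was chosen. Their difference from the distances over all genes is therefore a description and no finding. The median distance between midpoints was 23.3 kb (quartiles 10.9 and 65.3 kb, 155 pairs), against 10.3 kb over all called pairs of the series. The medians within the replicates were 52.8 kb for the 384 pairs of replicate 1 and 78.9 kb for the 538 of replicate 2. Over all genes they were 19.8 and 101 kb, so in replicate 2 the Igfbp4 median was the lower. Of the called Igfbp4 pairs, 46 or 29.7% joined fragments 50 to 100 kb apart, whereas 7.76% of all called pairs did. The called pairs of Igfbp2 had a median of 10.2 kb and those of Igfbp5 6.24 kb. The median of the 10 Igfbp6 pairs was 33.5 kb, that of the 2 Igfbp1 pairs 7.001 kb and that of the 2 Igfbp3 pairs 5.53 kb.

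**Figure D4:**
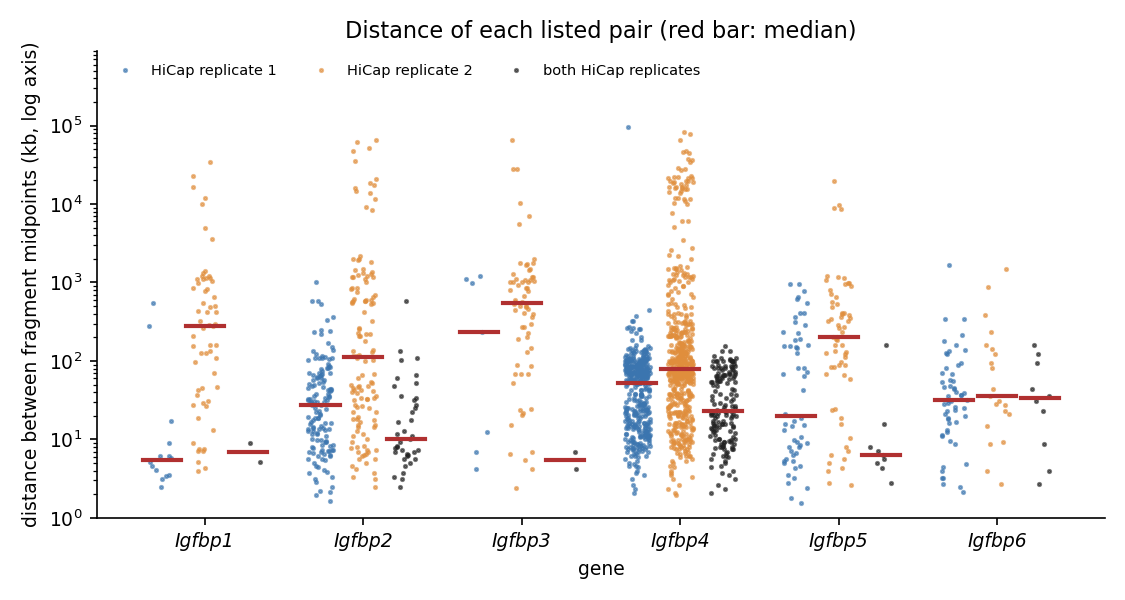
Distance between fragment midpoints in kb (log axis) for every listed pair of each Igfbp gene in HiCap replicate 1, HiCap replicate 2 and both, with red bars at the medians. For each of the 6 genes the replicate 2 median lay above the median of the pairs in both, and it was highest for Igfbp3 with 547 kb and Igfbp1 with 281 kb.

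The share of pairs found in the other replicate counts the calls by which Igfbp4 was chosen, so for Igfbp4 it is a description and its distance from the share over all genes is no finding. Of its replicate 1 pairs, 155 of 384 or 40.4% (95% interval 35.4 to 45.5%) stood in replicate 2, against 19.0% of the pairs of all genes. Of its replicate 2 pairs, 28.8% (25.02 to 32.84%) stood in replicate 1, against 17.1% of the pairs of all genes. The pooled pairs of the other members gave 62 of 274 or 22.6% (17.8 to 28.0%) and 62 of 337 or 18.4% (14.4 to 23.0%). Igfbp2 supplied 39 of these 62 pairs, and pairs of a promoter are not replicates, so the pooled shares are descriptions. Igfbp2 alone had 27.7% (20.5 to 35.8%) and 31.0% (23.0 to 39.8%). Igfbp5 had 16.1% and 14.1%, and Igfbp6 had 17.9% and 47.6%, the latter from 10 of 21 pairs (25.7 to 70.2%). Igfbp1 had 14.3% and 3.33% (0.406 to 11.5%), and Igfbp3 had 28.6% and 3.03% (0.369 to 10.5%). The low second values of Igfbp1 and Igfbp3 went with the larger number of pairs that replicate 2 listed for them.

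The share fell with distance for Igfbp4 as it did over all genes. Under 5 kb, 9 of the 11 replicate 1 pairs of Igfbp4 or 81.8% stood in replicate 2, against 31.6% over all genes. At 5 to 10 kb the share was 66.7% against 27.1%, at 10 to 25 kb 50% against 20.1%, at 25 to 50 kb 43.9% against 14.4%, at 50 to 100 kb 33.3% against 11.6% and at 100 to 500 kb 16.1% against 7.68%. Read from replicate 2, the shares were 81.8%, 70.3%, 65.7%, 34.6%, 31.9% and 7.58%, against 57.9%, 50.04%, 33.7%, 19.3%, 12.0% and 4.24%.

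**Figure D5:**
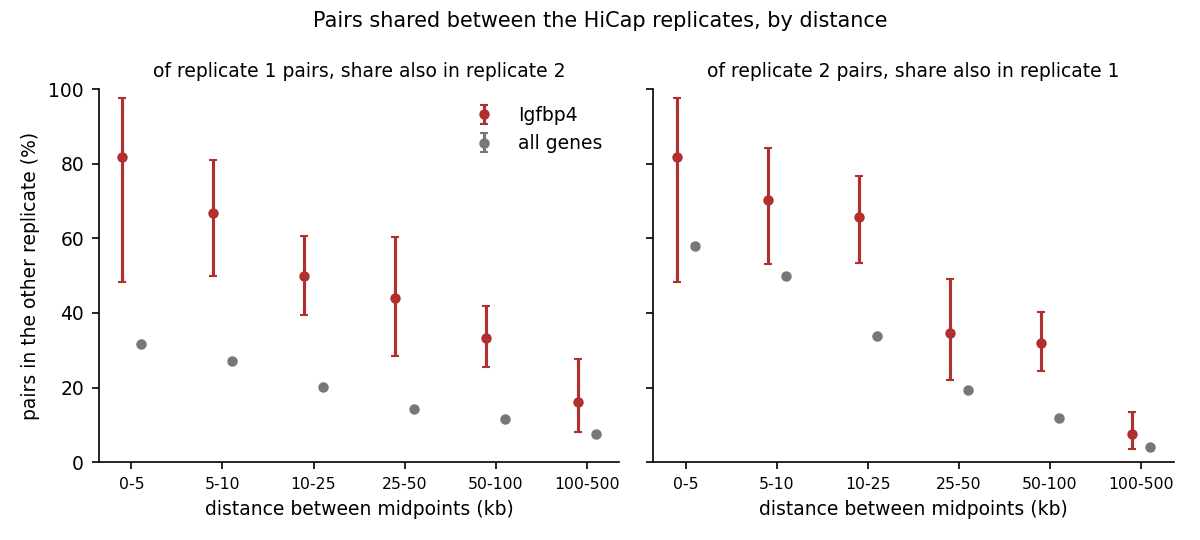
Percentage of pairs that stood in the other HiCap replicate, by distance between midpoints in kb, for Igfbp4 (red) and all genes (grey), starting from replicate 1 pairs on the left and replicate 2 pairs on the right, with exact binomial 95% intervals. From replicate 1, Igfbp4 fell from 81.8% to 16.1% and all genes from 31.6% to 7.68%.

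The pooled Hi-C list, made without promoter capture, held 31 pairs of Igfbp4. Of these, 12 were called in HiCap, or 38.7% (21.9 to 57.8%), against 15.8% of all Hi-C pairs, a share that again counts the calls used in the choice of Igfbp4 and is a description. In either HiCap replicate 24 of the 31 stood, or 77.4% (58.9 to 90.4%), against 39.4% of all Hi-C pairs, and nothing is read from this difference either. Seen from HiCap, 12 of the 155 called Igfbp4 pairs were in Hi-C, or 7.74% (4.06 to 13.1%), beside 12.5% of all called pairs. Over all genes, 4737 of 22931 called pairs under 5 kb were in Hi-C, and 289 of 7359 at 50 to 100 kb. The 12.5% is therefore not matched to the distances of the Igfbp4 pairs, and nothing is read from the comparison. Of the Igfbp4 pairs listed in a single HiCap replicate, 1.96% were in Hi-C, against 2.04% over all genes. The called pairs in Hi-C were mostly close to the gene, with 4 under 5 kb, 4 from 5 to 10 kb, 2 from 10 to 25 kb and 2 from 50 to 100 kb. Those 2 long pairs ended at chr11:98849905-98851179, 54.0 kb from the fragment at 98904119, and at chr11:98967640-98969010, 65.3 kb from the coding fragment.

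The paralogs had fewer Hi-C pairs than Igfbp4. Igfbp2 had 12 pairs with 11 regions, which placed it 1059th of the genes in the list, of which 3 were called and 5 stood in either HiCap replicate. All 5 were pairs of its main fragment, while the 7 pairs of the fragment at 72895078 stood in neither HiCap replicate. Igfbp6 had 4 pairs, of which 3 stood in replicate 1 and 1 was called, the fragment at chr15:101978236-101978798 in an exon of Igfbp6. Igfbp5 had 2, of which 1 stood in replicate 1, and Igfbp3 had 0. The single Hi-C pair of Igfbp1 ended in an exon of Igfbp3 at chr11:7105750-7106541, which stood in neither HiCap list for Igfbp1 and adjoined the called region described next.

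The members include neighbours. Igfbp1 at chr11:7097785-7102549 on the plus strand and Igfbp3 at chr11:7106089-7113926 on the minus strand are neighbours that face each other with their ends. Their promoters were each linked to 2 called regions, of which 1 was common to both, chr11:7106541-7107295, 754 bp long, made of 2 MboI fragments and in an exon of Igfbp3. It lay 8.92 kb from the Igfbp1 promoter fragment and 6.85 kb from that of Igfbp3. The remaining called region of Igfbp3, at 7107902 to 7111217, also overlapped an exon of that gene, and the remaining Igfbp1 region, at 7102723 to 7103441, lay between both genes. No called region of this pair lay upstream of its promoter.

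Igfbp2 at chr1:72871077-72899048 on the plus strand and Igfbp5 at chr1:72904506-72921458 on the minus strand have the same end-to-end arrangement. They shared the called region chr1:72759770-72760998, 1228 bp long and in an exon of the ribosomal protein gene Rpl37a. This region was the only call of the Igfbp2 fragment at 72895078, 135 kb away, and lay 161 kb from the Igfbp5 promoter, and it was linked to Rpl37a and Ankar as well. In single lists the overlap of Igfbp2 and Igfbp5 was 8 regions in replicate 1 and 5 in replicate 2.

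The called regions of Igfbp2 lay mainly upstream, 31 against 8 downstream, and all 8 downstream regions were in introns of Igfbp2. Of all 39, 29 were intergenic and 2 exonic, and 33 had an Igfbp2 fragment as the nearest captured promoter, compared with 26 of 111 for Igfbp4. Of the 39, 5 or 12.8% were also linked to another gene. The share over all called regions, 13.9%, counts each region once and not once per linked gene, so it is not a like measure. Igfbp2 shared 4 with Rpl37a, or 10.3% of its own and 14.3% of the 28 of Rpl37a, and 1 each with Mreg, Ankar and the DNA repair gene Xrcc5. The farthest Igfbp2 region, 580 kb upstream in an exon of D230017M19Rik at chr1:72290033-72290673, had promoter fragments of 6 other genes in between and was linked to Mreg, Pecr and Xrcc5 as well. The 9 called regions of Igfbp5 were 4 upstream intergenic fragments, 4 fragments in its own intron and the Rpl37a fragment, and 8 of the 9 had Igfbp5 as the nearest captured gene.

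Igfbp6 at chr15:101974793-101979942 had a different surrounding. Of its 10 called regions, 4 lay upstream and 6 downstream, 4 were exonic, in Tenc1, Igfbp6, Soat2 and Csad, and 1 was in an intron of Rarg, a retinoic acid receptor gene. For 1 of the 10 Igfbp6 was the nearest captured gene, and 7 were also linked to other genes, 18 in all. Most often shared were Zfp740, with 5 of the 10 regions, and Tenc1 and Rarg, with 4 each. By the Jaccard index, which favours genes with few regions, the first 5 genes were others. Igfbp6 shared 3 regions each with the translation factor gene Eif4b, with Spryd3, with Csad of taurine synthesis and with Soat2 of cholesterol esterification, and 2 with the keratin gene Krt18. These were both of the called regions of Krt18, 33.3% of the 9 each of Eif4b and Spryd3, 25% of the 12 of Csad and 23.1% of the 13 of Soat2. The Igfbp6 region with the most other genes, 11, was the intergenic fragment chr15:101997203-101998289.

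Igfbp4 shared called regions with other genes as well. Of its 111 called regions 46 or 41.4% were also linked to another gene. The 13.9% of all called regions linked to more than 1 gene counts each region once. A shared region enters the list of each of its genes, so the share per gene list runs higher. The values are therefore not like for like. Of its 12 sharing genes Tns4 was the first, with 24 regions, or 21.6% of those of Igfbp4 and 63.2% of the 38 of Tns4. Rara shared 17, or 15.3% of Igfbp4 and 17% of its own 100, and Ccr7 shared 9, or 8.11% and 42.9% of its 21. The connexin gene Gjd3 shared 3 of 6 and the replication licensing gene Cdc6 3 of 43. In the single lists Igfbp4 shared 63 regions with Tns4 in replicate 1 and 59 in replicate 2, and 0 in Hi-C. The region with the most other genes was chr11:98803968-98805112 in an intron of Rara, called for Igfbp4 and for Casc3, Cdc6, Gjd3, Med24, Rara, Tns4, Top2a and Wipf2.

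Other promoters also contacted the gene bodies of the family. Of the 6 called regions that overlapped Igfbp4, all 6 were linked to an Igfbp4 promoter fragment and 2 to Tns4. In Igfbp2 there were 9, of which 8 were linked to Igfbp2 and 2 to Rpl37a, in Igfbp5 4, all linked to Igfbp5, in Igfbp3 2, and in Igfbp6 1. None of the captured promoter fragments of Igfbp1 to Igfbp6 was a distal region of any pair in the lists used here. These lists hold pairs of a promoter and a distal region, and per the study's methods pairs of promoters were called separately. This absence therefore says nothing about contacts between promoters.

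Igfbp7, whose product binds insulin-like growth factors weakly, had no pair. Its start site at 77837070 on chr5 lay in an MboI fragment from 77834606 to 77837184, 2578 bp long, which no list gave as a promoter fragment of Igfbp7, so whether it was captured cannot be told from the lists. Its gene body, chr5:77778265-77837070 on the minus strand, overlapped 2 distal regions of other genes in replicate 1, 15 in replicate 2, 0 in both and 1 in Hi-C. The gene Rest, a repressor of neuronal genes, was linked to the body in each HiCap list, through different regions. The fragment over the Igfbp7 start site was itself listed as a distal region, in 4 pairs of replicate 2 with the promoters of Glmn, Mpv17, Polr2b and Rest, the nearest 81.4 kb away, and in 0 pairs of replicate 1, both and Hi-C. The absence of Igfbp7 is an absence from the lists and not a measured lack of contacts.

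The other genes of the insulin-like growth factor pathway had about as many calls as genes in general. Of 26 genes listed by role, 25 were in a HiCap list and 16 of these, or 64%, had a call, close to the 60.7% of all genes, with a median of 1 called region as over all genes. The ligand gene Ins2 had 11 called regions, Igf1 3, and Igf2 and Ins1 0. The receptor genes Igf2r and Insrr had 2 each, Insr 1 and Igf1r 0. The highest value in this list was 18 for the adaptor Irs1, followed by 14 for Cyr61, a matricellular relative of the binding proteins. Igfals, which encodes the partner of Igfbp3 in serum, had 5. Of the genes of proteases that cut the binding proteins, Pappa had 0, Pappa2 3, Htra1 4 and Adamts1 10 called regions, and the inhibitor genes Stc1 and Stc2 had 0 and 7. The median of these 6 genes was 3.5. Igfbp4 and Igfbp2 had more called regions than every gene of this list.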

How the data were processed

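Per the study's methods, the authors aligned both read ends separately to mm9 through HiCUP with Bowtie, discarded multi-mapping reads, duplicates and pairs of nearby ends, assigned ends to MboI fragments and listed promoter interactions above a minimum number of read pairs. The alignment and minimum for the Hi-C list are not given in the sources used here. The deposited lists hold fragment positions only, with no other score or count, so depth is unknown and a pair close to the minimum cannot be told from a strong pair.

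All 4 lists were read with Python 3.11.15. Pairs were matched by gene name, promoter fragment and distal region, and distances were taken between midpoints. Fragments were placed on mm9 sequence (pysam 0.24.0) and GENCODE vM1 genes without pseudogenes. Distal regions were counted once per gene and genes ranked by that number. Matching was tested on simulated lists with planted identical pairs, which checks the code and not whether matched pairs are true contacts. The named genes were the Igfbp genes, the pathway list, for each Igfbp gene up to 5 genes with the highest Jaccard index of shared called regions, and up to 5 genes whose bodies overlapped the most Igfbp4 regions. Others were named after their values were seen: Wipf2 as the sixth overlapped gene, genes linked to singled-out regions, the genes with the most regions shared with Igfbp6, Rest and the other genes linked to the Igfbp7 start fragment. Members and lists were chosen with earlier results of these data known. Alternatives were a minimum distance of 15 kb, a tolerance of 1 kb, single replicates, the combined list, merged regions, single promoter fragments and edge distances.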

Additional observations from a re-analysis of the deposited data

How the results depend on the processing

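Per the study's methods a call needed support in both replicates, so the authors' combined list, also with 111 Igfbp4 regions, is not an independent alternative. The number of called Igfbp4 regions, 111, was 86 at 15 kb or more, 245 with a tolerance of 1 kb, 68 after merging and 70 for the best promoter fragment. Taken from a single replicate it ranged from 258 to 410, the ratio to Igfbp2 from 1.90 to 3.25, the median distance from 52.8 to 78.9 kb and the regions shared with Tns4 from 59 to 63. The ratio was 5.38 at 15 kb or more and 1.84 by best promoter fragment. At 15 kb or more the Hi-C share of called Igfbp4 pairs was 3.92%, the replicate 1 share 34.8% and the replicate 2 share 22.2%. With a tolerance of 1 kb these shares were 45.2%, 96.1% and 67.1%. That tolerance accepted a region of any promoter fragment of the gene. Replicate 2 regions of the coding promoter alone covered 32.8% of the bases in the fragments 1 to 100 kb away. No value over all genes stands beside the shares with tolerance, so nothing is read from them. Igfbp4 had the most called regions of the family under every alternative tried. Its rank, 3, was 61 in Hi-C, an alternative chosen after seeing the data. Over all results, 40 alternative values stayed within 1.5 times the reported count or within its interval, those of the combined list among them. The other 49 moved further. The cause was not tested. No paired analysis was possible because HiCap replicates lack a matched group and Hi-C is 1 pooled list. Lists without read numbers limit all counts, since a pair missing from a list may lie just under the minimum.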

Other observations

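Pairs over 1 Mb apart were listed mainly by replicate 2 and were called for no Igfbp gene. Igfbp4 had 1 such pair of 384 in replicate 1, at 95.8 Mb, and 77 of 538 or 14.3% in replicate 2, the farthest at 81.9 Mb. Igfbp2 had 1 and 31, Igfbp3 2 and 24, Igfbp1 0 and 16, Igfbp5 0 and 8 and Igfbp6 1 and 1 in replicates 1 and 2. Over all genes 0.371% of replicate 1 pairs and 19.4% of replicate 2 pairs were over 1 Mb apart, and so were 0.0696% of called pairs, beside which the 0 of 217 called Igfbp pairs is no departure.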
